A study of Bos taurus with 106 samples.

Results

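SLC10A1 encodes the sodium taurocholate cotransporter of the liver, and the array carried 1 element for it among 8208. The element was found by its symbol in the probe annotation of the array. It was followed in liver from 8 Holstein cows that ate either freely or a limited amount before calving. SLC10A1 was chosen by its own measured levels over the 7 sampled days, so its course over days is described here without a test. Feeding levels were compared with a test, but the values of both levels were in view when the gene was chosen, so these tests are not independent of that choice.

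The transporter sits on the blood-facing membrane of hepatocytes and takes up conjugated bile acids from portal blood together with sodium. The sodium gradient is kept up by the sodium pump. Other carriers then export bile acids into the canaliculus, so that uptake and export together sustain the circulation of bile acids between liver and gut. In rodents, transcription of the gene falls in cholestasis and inflammation and responds to bile acid-sensing nuclear receptors, to cytokines and to prolactin.

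All cows received a moderate-energy diet of 1.60 Mcal/kg through a dry period of 65 days. The 4 ad libitum cows reached about 120% of the NRC energy requirement, and the 4 restricted cows about 80%. Liver RNA was taken at days -65, -30, -14, 1, 14, 28 and 49 relative to calving, which gave 53 liver samples. The ad libitum group had 3 samples on day -65 and 2 on day 49, and 4 samples on each other day, and the restricted group had 4 samples on every day. The sources used here do not give age, parity or the feeding after calving. Each liver sample was hybridised on 2 slides, with liver labelled in Cy3 on one and in Cy5 on the other, against a reference mixed from tissues other than liver. A value is therefore the log2 ratio of liver over that reference, relative to the median of all elements on the slide. It compares SLC10A1 between samples and is not an absolute amount.

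SLC10A1 was far above the reference on every slide. The lowest of the 106 slides still read 2.25 before centring. In the centred averages of both slides the 53 samples lay between 3.24 and 6.63, or 9.46-fold to 99.3-fold over the reference, with a mean of 5.17. By its mean ratio the element held rank 22 of 8061 tested elements. The 2 spots of the element on a slide differed by a median of 0.12, and by at most 0.58. Within a diet and day, samples of different cows had a pooled SD of 0.41.

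In the ad libitum cows, 6886 had values of 6.18, 5.63, 4.04, 3.24, 4.05 and 6.4 on days -65, -30, -14, 1, 14 and 28. Cow 7050 had 5.79, 3.88, 3.62, 3.78 and 6.63 on days -30, -14, 1, 14 and 28. Cow 7161 had 5.95, 5.57, 4.34, 3.66, 4.15, 5.43 and 6.0 over the 7 days, and cow 7187 had 6.25, 5.60, 4.26, 4.05, 4.99, 5.76 and 6.05. Each of these cows had its lowest value on day 1.

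In the restricted cows, 6877 had values of 6.27, 5.16, 4.12, 4.44, 4.77, 6.39 and 5.83 over the 7 days. Cow 6952 had 6.43, 5.58, 4.38, 4.03, 6.33, 6.45 and 5.68. Cow 7045 had 5.62, 5.66, 5.01, 3.99, 4.37, 6.15 and 5.38, and cow 7105 had 5.87, 6.21, 4.08, 3.84, 4.81, 5.90 and 6.11. Cow 6877 was lowest on day -14, and the other restricted cows on day 1. Cow 6952 stood apart on day 14, where its centred value had already reached the range of day 28. Its slide median was -1.19 on that day, against -0.33 to -0.03 in the other cows. Without centring it read 5.13, and the next highest, cow 7105, read 4.76. With arrays scaled to equal spread cow 6952 read 5.31, below every sample of day 28 (lowest 5.72).

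**Figure D1:**
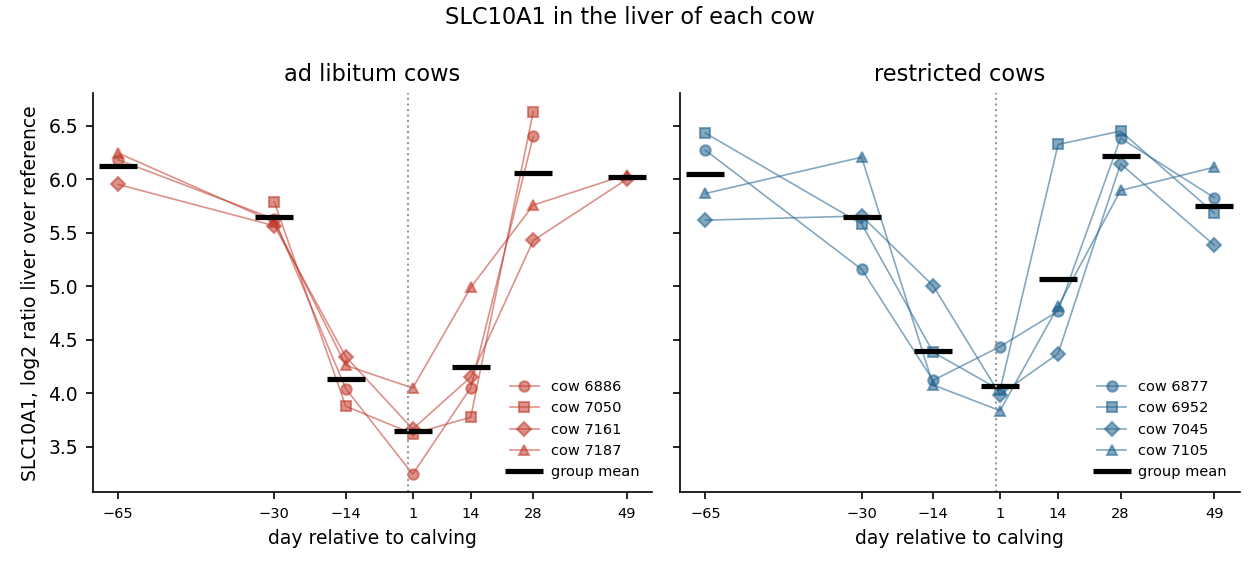
SLC10A1 as the log2 ratio of liver over reference (vertical axis) on each sampled day relative to calving (horizontal axis), for 4 ad libitum cows (left) and 4 restricted cows (right). Thin lines join the samples of a cow, black bars are group means, and the dotted line is calving; every cow was lower on day 1 than on day -30 and on day 28, and cow 6952 was high on day 14.

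The course of SLC10A1 was a trough around calving. Before calving, SLC10A1 averaged 6.08 ± 0.28 on day -65, 5.65 ± 0.29 on day -30 and 4.26 ± 0.34 on day -14. After calving it averaged 3.86 ± 0.36 on day 1, 4.66 ± 0.79 on day 14, 6.14 ± 0.41 on day 28 and 5.84 ± 0.27 on day 49. Errors are SD over 8 cows, except for 7 cows on day -65 and 6 on day 49. As ratios over the reference these means were 67.7-fold, 50.2-fold, 19.2-fold, 14.5-fold, 25.2-fold, 70.4-fold and 57.4-fold. In whole liver a smaller share of hepatocytes and less SLC10A1 RNA per hepatocyte cannot be told apart.

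Ordered by mean, the days ran 28, -65, 49, -30, 14, -14 and 1. The means of neighbours in this order lay 0.06 to 0.41 apart, except that day -30 was 0.99 above day 14. The ranges of each pair of neighbours overlapped, so no neighbours were fully apart. In these centred means of both slides the trough as a whole was separate. All 16 samples of days -14 and 1 lay at or below 5.01, and all 29 samples of days -65, -30, 28 and 49 lay at or above 5.16. On day 14, 7 of 8 samples were below 5.16 and cow 6952 was at 6.33. Without centring the separation was lost: cow 7045 read 4.82 on day -14 and cow 6877 read 4.37 on day -30. On the Cy5 slides alone these 2 samples read 5.67 and 5.43. On the Cy3 slides alone and with arrays scaled to equal spread the separation was kept.

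Within cows, SLC10A1 on day -14 differed from day -30 by -1.39 ± 0.48 (mean and SD of the log2 difference, n = 8), or 2.61-fold, and it was lower on day -14 in 8 of 8 cows. The single differences ranged from -2.13 to -0.65. Between day 1 and day -14 the difference was -0.41 ± 0.42 (SD, n = 8), with 7 of 8 cows lower. SLC10A1 on day 1 was 4.56-fold lower than on day -65 in the 7 cows sampled on both days. Most of the distance to the trough thus lay between days -30 and -14, before calving.

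The recovery was less even. SLC10A1 on day 14 was 0.80 ± 0.68 (SD, n = 8) higher than on day 1, in 8 of 8 cows, with single differences from 0.16 to 2.30. On day 28 it was 1.48 ± 0.87 (SD, n = 8) higher than on day 14, again in 8 of 8 cows and by 2.79-fold on average. The smallest of these differences, 0.13, belonged to cow 6952. Day 28 differed from day -65 by -0.01 ± 0.38 (SD, n = 7), which is within the spread between cows, and day 49 from day 28 by -0.17 ± 0.59 (SD, n = 6), with 3 of 6 cows lower.

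Both dye orientations showed the trough. With liver in Cy5 the day means were 6.16, 5.78, 4.49, 3.93, 5.04, 6.35 and 5.91 over the 7 days, and with liver in Cy3 they were 6.01, 5.52, 4.04, 3.78, 4.27, 5.92 and 5.78. The difference of day -14 from day -30 was -1.29 on the Cy5 slides, where 7 of 8 cows were lower, and -1.48 on the Cy3 slides, where 8 of 8 cows were lower. Across the 53 samples the slides correlated at r = 0.788 for SLC10A1. Once diet and day means were removed the correlation was 0.204, so differences between cows on the same day were poorly repeated from slide to slide. The widest gap was in cow 7045 on day 14, with 6.29 in Cy5 and 2.45 in Cy3.

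**Figure D2:**
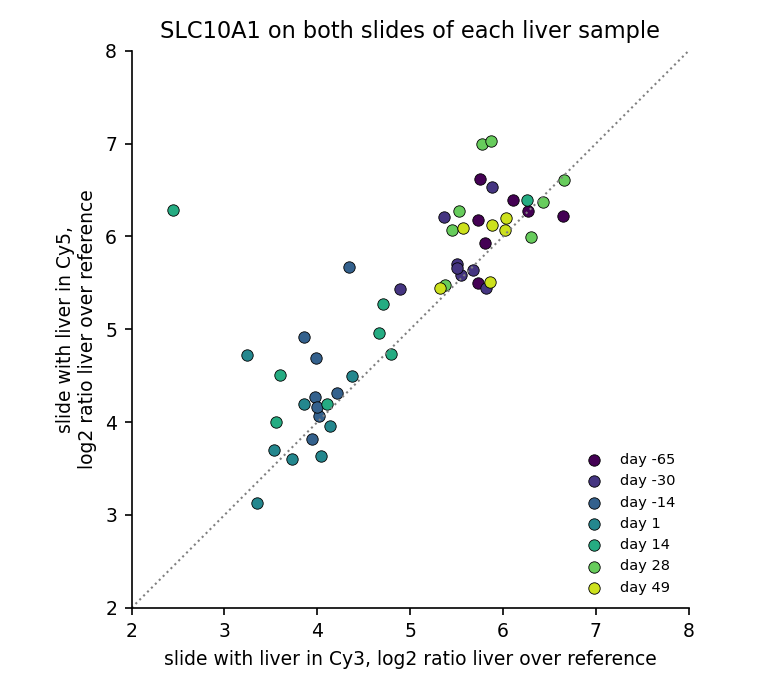
SLC10A1 on the slide with liver in Cy5 (vertical axis) against the slide with liver in Cy3 (horizontal axis), both as log2 ratio of liver over reference, for 53 liver samples coloured by day. The dotted line marks equal values; the means of days -14 and 1 were the lowest of the 7 days on both slides while single samples overlapped other days, and the point far above the line is cow 7045 on day 14 (6.29 against 2.45).

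The slides of the trough days agreed less well with each other. The correlation across elements between both slides of a liver sample averaged 0.702, 0.687, 0.531, 0.444, 0.479, 0.666 and 0.701 on the 7 days. It was under 0.6 in 20 samples, of which 5, 6 and 5 were from days -14, 1 and 14. Within diet and day, SLC10A1 and this correlation were related at r = 0.453 over 53 samples. Slide medians before centring also moved, averaging -0.62, -0.58, -0.16, -0.09, -0.31, -0.78 and -0.33 on the 7 days, so part of each difference depends on centring. Without centring, SLC10A1 on day -14 differed from day -30 by -0.96 ± 0.77 (SD, n = 8) and was lower in 8 of 8 cows, and day 28 was 1.01 ± 0.76 (SD, n = 8) higher than day 14, in 6 of 8 cows. With arrays scaled to equal spread the 2 differences were wider, at -2.24 and 2.77, and without the 20 samples of low slide agreement they were -1.36 and 1.41.

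Other strongly liver-enriched elements were set beside SLC10A1. The 99 other elements among the 100 with the highest mean ratio had a median over elements that averaged 3.97, 3.64, 3.81, 3.46, 3.70, 3.94 and 3.72 on the 7 days. Between day -14 and day -30 their median change was 0.06, and 97 of 99 fell less than SLC10A1 or did not fall at all. Between day 28 and day 14 their median change was 0.35, and 97 of 99 rose less than SLC10A1 or did not rise. SLC10A1 was thus near the edge of this group in both intervals, as its choice entails. Without centring the median changes of these 99 elements were 0.48 and -0.12 in the 2 intervals. Across the whole array 33.5% of tested elements passed an adjusted p of 0.05 in limma between day -14 and day -30, and 8.62% between day 28 and day 14. Of these calls 58.3% were higher on day -14 and 43.0% were higher on day 28. Without centring the shares were 96.6% and 1.37%, so without centring most calls ran opposite to SLC10A1 in both intervals.

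**Figure D3:**
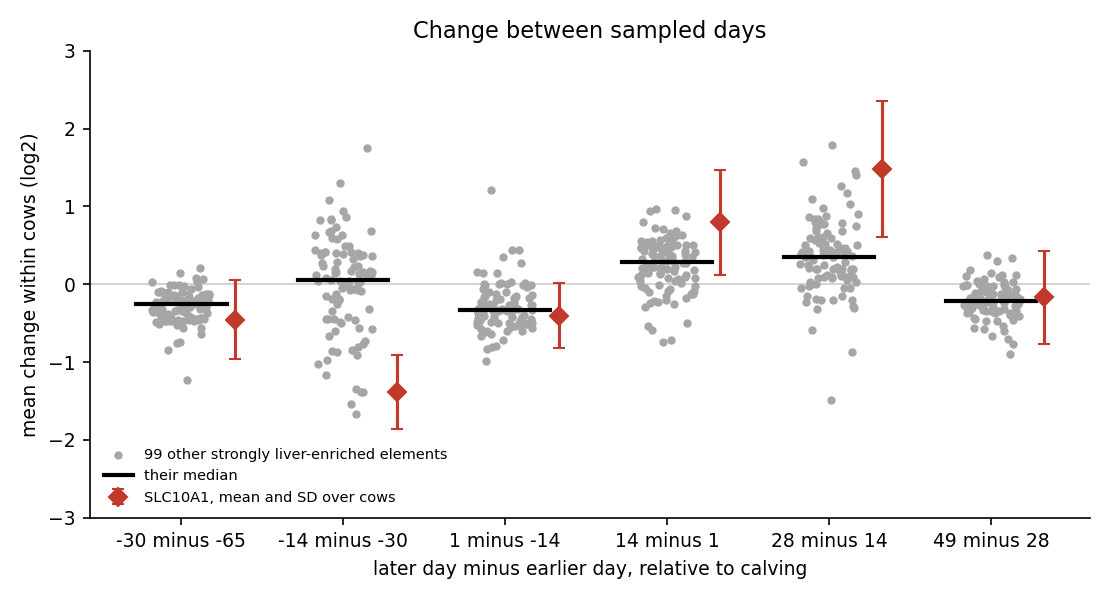
Mean change within cows on the log2 scale (vertical axis) between each pair of consecutive sampled days (horizontal axis, later minus earlier day). Grey points are the 99 other strongly liver-enriched elements, black bars their medians, and red diamonds SLC10A1 with the SD over cows; SLC10A1 lay low among the points for day -14 minus day -30 (-1.39) and high for day 28 minus day 14 (1.48).

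Feeding level before calving was then compared. Over days -30 and -14 the ad libitum cows averaged 4.89 ± 0.06 and the restricted cows 5.02 ± 0.29 (SD, n = 4 each). The difference, ad libitum minus restricted, was -0.14 ± 0.15 (SE; exact two-sided permutation p = 0.4, limma adjusted p = 0.704). No element passed in this comparison (0% of 8061 by limma, with 1050 at an unadjusted p under 0.05). Ad libitum cows lay between 4.83 and 4.95, inside the range of 4.64 to 5.33 in restricted cows.

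After calving, over days 1, 14 and 28, SLC10A1 averaged 4.65 ± 0.22 in ad libitum cows and 5.12 ± 0.36 in restricted cows (SD, n = 4 each). The difference of -0.47 ± 0.18 (SE) did not pass (exact permutation p = 0.0857, or 0.257 adjusted over the 3 period comparisons, limma adjusted p = 0.155), and the ranges, 4.41 to 4.93 in ad libitum and 4.83 to 5.60 in restricted cows, overlapped. In the same comparison 10.5% of elements passed, 9.81% higher and 0.67% lower in ad libitum cows. Slide agreement averaged 0.336, 0.398 and 0.621 in ad libitum cows on days 1, 14 and 28. In restricted cows it averaged 0.552, 0.561 and 0.710. The part of slide agreement in this comparison was not tested. The smallest p that 4 cows against 4 can give is 0.0286. The change across calving was -0.24 ± 0.23 in ad libitum cows and 0.10 ± 0.57 in restricted cows (SD, n = 4 each), a difference of -0.34 ± 0.26 (SE; exact permutation p = 0.343), in a comparison that 0% of 8037 elements passed by limma, with 710 at an unadjusted p under 0.05.

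Day by day the ranges of the diets overlapped on each of the 7 days. The difference, ad libitum minus restricted, was 0.08 ± 0.31 on day -65, -0.01 ± 0.29 on day -30 and -0.27 ± 0.29 on day -14 (SE). It was -0.43 ± 0.29 on day 1, where ad libitum cows averaged 3.64 ± 0.33 and restricted cows 4.07 ± 0.26 (SD, n = 4 each), -0.16 ± 0.29 on day 28 and 0.27 ± 0.35 on day 49. None of these 6 days passed for SLC10A1 (limma adjusted p of 0.408 on day 1 and above that on the others). Among all elements 6.08% passed on day -14 and 10.7% on day 1, and 0% on days -65, -30, 28 and 49, where 285, 77, 93 and 48 had an unadjusted p under 0.05.

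Day 14 was the exception in the limma fit. Ad libitum cows had 4.05, 3.78, 4.15 and 4.99, against 4.77, 6.33, 4.37 and 4.81 in restricted cows. The means were 4.24 ± 0.52 in ad libitum and 5.07 ± 0.86 in restricted cows (SD, n = 4 each), a difference of -0.83 ± 0.29 (SE; limma adjusted p = 0.0419), on a day on which 15.3% of elements passed, 11.6% higher and 3.66% lower in ad libitum cows. Without centring 97.8% of the calls of that day were higher, against 76.0% with it. The exact permutation test of the same 8 values gave p = 0.143, or 0.5 adjusted over the 7 days, and the groups overlapped. The limma adjustment is over elements and not over days. The limma SE rests on 1 spread shared by all 14 groups. The pooled SD within groups was 0.41, below both SDs of day 14. Without cow 6952 the difference was -0.41 (exact permutation p = 0.286). Slide agreement on day 14 averaged 0.398 in ad libitum cows and 0.561 in restricted cows. With slide agreement as a covariate the difference was -0.59 (limma adjusted p = 0.139). Without the samples of low slide agreement, which left 1 ad libitum and 2 restricted cows on this day, it was -1.41 (limma adjusted p = 0.0876), with the lone sample assumed to vary like the other groups. A test of whether the whole course over days differed between diets did not pass for SLC10A1 (limma F test, adjusted p = 0.571), where 0.806% of elements did.

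The other genes of bile acid and organic anion transport were next set beside SLC10A1. Of 32 listed genes the array carried 5, each as 1 element, and 4 besides SLC10A1 were tested. Between day -14 and day -30, 1 of 4 fell and none rose, against 14% lower and 19.5% higher among all elements. Between day 28 and day 14, 1 of 4 rose and none fell, against 3.71% higher and 4.91% lower. The median difference of the 4 was 0.05 and then 0.41, beside 0.06 and 0.04 over all tested elements.

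SLCO2B1, an organic anion uptake carrier that like SLC10A1 faces the blood, was the element that passed. Its mean ratios were 4.19, 3.76, 2.85, 2.24, 3.20, 4.06 and 3.85 over the 7 days. It fell by 0.91 on the log2 scale (SE 0.24, limma adjusted p = 0.0029) on day -14 relative to day -30, in 8 of 8 cows, and rose by 0.86 ± 0.24 (SE, limma adjusted p = 0.014) on day 28 relative to day 14, in 6 of 8 cows. Without centring the differences were -0.49 and 0.39 and neither passed. The first did not pass with liver in Cy3 alone (-0.52, limma adjusted p = 0.104). The second did not pass with liver in Cy5 alone (1.01, limma adjusted p = 0.0505) or with slide agreement as a covariate (0.57, limma adjusted p = 0.133). With scaled arrays both passed and were wider, at -1.54 and 1.73. Without the 20 samples of low slide agreement the differences were -0.996, which passed, and 0.60 (limma adjusted p = 0.125). The call in the second interval was also lost without cow 6886, 7045, 7050 or 7105, with 0.58 as the smallest difference, without cow 7050 (limma adjusted p = 0.151).

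The 3 exporters on the array did not pass in either interval. ABCC2, the canalicular exporter of conjugated organic anions, differed by 0.09 ± 0.21 and 0.44 ± 0.21 (SE) in the 2 intervals. ABCG2, a canalicular exporter of sulphated compounds and drugs, differed by 0.01 ± 0.19 and 0.38 ± 0.19 (SE). ABCC3, which exports conjugates back into blood, differed by 0.20 ± 0.13 and -0.08 ± 0.13 (SE). Scaling moved them: ABCC2 and ABCG2 passed in the second interval with arrays scaled to equal spread (1.27 and 0.98), and ABCC3 passed in both without centring (0.62 and -0.55). The exporter ABCB11, which carries bile salts into the canaliculus, was among the 27 listed genes with no element annotated to them.

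The difference between SLCO2B1 and the exporters was tested within cows, where centring cancels. SLCO2B1 had already passed in these intervals and samples and the exporters had not, so these tests are not independent of those calls. Between day -14 and day -30, the change of SLCO2B1 minus that of ABCC2 was -0.99 ± 0.59, minus that of ABCG2 -0.92 ± 0.61 and minus that of ABCC3 -1.11 ± 0.69 (SD, n = 8). The first 2 differences had this sign in 7 of 8 cows and the third in 8 of 8 (exact sign-flip permutation, adjusted p = 0.0312 for each over 6 tests). Between day 28 and day 14 SLCO2B1 changed by 0.94 ± 0.87 (SD, n = 8) more than ABCC3 (exact adjusted p = 0.0469). It changed by 0.42 ± 1.25 more than ABCC2 and 0.48 ± 1.2 more than ABCG2 (SD, n = 8), and neither passed (exact adjusted p = 0.328 for both).

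**Figure D4:**
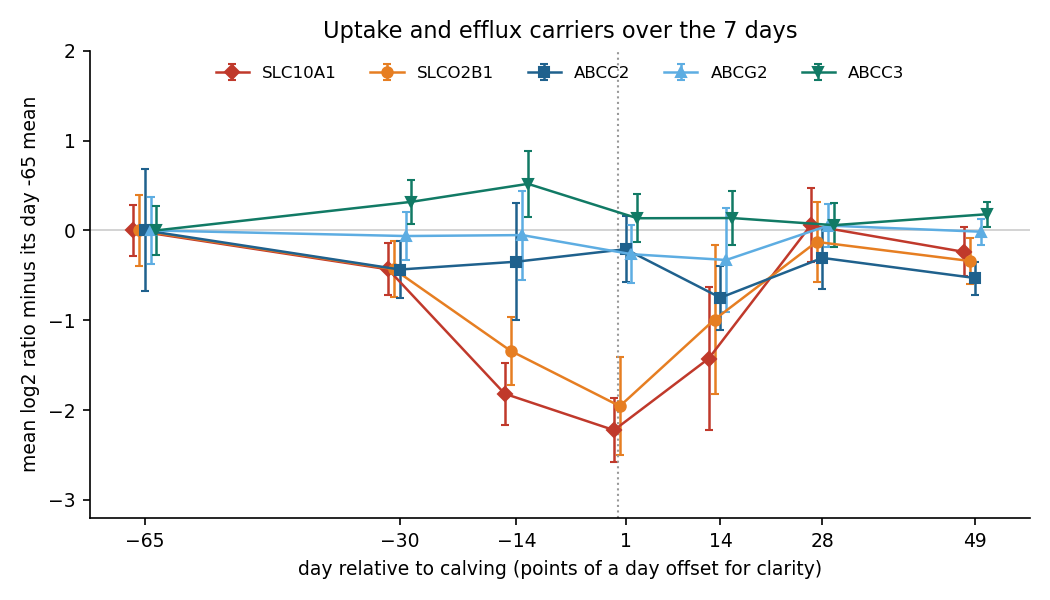
Mean log2 ratio of liver over reference minus the day -65 mean of the same gene (vertical axis) on 7 days relative to calving (horizontal axis), for SLC10A1 and the 4 other carriers on the array, with bars for the SD over 6 to 8 cows. The uptake carriers SLC10A1 and SLCO2B1 reach their lowest means on day 1 (3.86 and 2.24 before the subtraction). On days -14, 1 and 14 the exporters ABCC2, ABCG2 and ABCC3 stay nearer to their starting level, which does not hold for ABCC2 on the other days.

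Of 21 genes of bile acid synthesis and conjugation the array carried 3. SLC27A2, a fatty acid transporter and acyl-CoA synthetase that can also activate bile acid precursors, fell by 1.40 on the log2 scale (SE 0.26, limma adjusted p = 6.4e-05) on day -14 relative to day -30, and rose by 0.97 ± 0.26 (SE, limma adjusted p = 0.012) on day 28 relative to day 14. Neither call was kept without the 20 samples of low slide agreement, where the differences were -1.07 and 0.89 (limma adjusted p = 0.0535 and 0.155), and the second was also lost without centring (0.49), with liver in Cy5 alone (0.64) and without cow 7050 or 7161. SCP2, a sterol carrier and peroxisomal thiolase, differed by 0.03 ± 0.33 and 0.36 ± 0.33, and ABCD3, a peroxisomal importer of branched and bile acid intermediates, by 0.25 ± 0.26 and 0.29 ± 0.26 (SE), without passing. CYP7A1, the rate-limiting enzyme of bile acid synthesis, was not among the annotated elements.

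Nuclear receptors and liver transcription factors were represented by 7 of 31 genes, with 11 tested elements. Between day -14 and day -30, 1 element rose and 1 fell, against 19.5% higher and 14% lower among all elements, and between day 28 and day 14 none passed, against 3.71% and 4.91%. Without centring 5 rose and none fell in the first interval and 3 fell in the second, and with liver in Cy3 alone 1 rose and 4 fell, then 3 rose and 1 fell. VDR, the vitamin D receptor, which also binds the bile acid lithocholic acid, rose by 0.53 ± 0.18 (SE, limma adjusted p = 0.019), but on the Cy5 slides alone its difference was -0.0023, and the call was lost with the first spot alone, without the samples of low slide agreement (limma adjusted p = 0.276 and 0.257) and without cow 7045 or 7187 (limma adjusted p = 0.110 and 0.0912). RXRB, a partner of bile acid-sensing receptors, had 3 elements. One fell by 0.49 on the log2 scale (SE 0.11, limma adjusted p = 0.00078), a difference of -0.065 without centring, and the other two differed by -0.32 ± 0.14 and -0.19 ± 0.11 (SE) without passing. An element of CEBPA, a hepatocyte transcription factor, differed by 0.25 ± 0.20 and 0.47 ± 0.20 (SE) in the 2 intervals, and neither passed. It was 0.67 in the first interval without centring (limma adjusted p = 0.025) and 1.05 in the second with scaled arrays (limma adjusted p = 0.00024), both of which passed.

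The lists for prolactin and growth hormone signalling and for the sodium pump were then examined. Prolactin, growth hormone and their receptors had no element annotated to them, so these signals themselves were not measured. Of 14 genes of prolactin and growth hormone signalling only IGFBP3, a carrier of insulin-like growth factors, was on the array, with 3 elements that did not move together. On day -14 relative to day -30 one of them rose by 0.67 ± 0.21 (SE, limma adjusted p = 0.011), though by 0.025 with scaled arrays, and the call was also lost on the Cy5 slides alone, without the samples of low slide agreement and without cow 7187 (limma adjusted p of 0.0649, 0.082 and 0.0567). The others differed by -0.44 ± 0.28 and -0.28 ± 0.18 (SE) without passing. These 2 fell and passed on the Cy3 slides alone (-0.98 and -0.64, limma adjusted p = 0.011 and 0.018). None passed between day 28 and day 14, whereas with scaled arrays all 3 rose (by 0.94, 0.67 and 0.81, limma adjusted p = 0.015, 0.0057 and 0.013). For the sodium pump, 2 of 9 genes were present with 3 elements, and ATP1B1 and ATP1B3, its beta subunits, did not pass in either interval, with differences from -0.29 to 0.47.

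Inflammatory cytokine signalling was better covered, with 12 of 29 genes and 15 elements. On day -14 relative to day -30, 3 elements rose and 2 fell, shares close to the 19.5% higher and 14% lower among all elements. Without centring 9 rose and 1 fell in this interval, and 1 rose and 8 fell on day 28 relative to day 14. LIFR, the receptor chain for leukaemia inhibitory factor, fell by 1.42 on the log2 scale (SE 0.20, limma adjusted p = 1.4e-06) in 8 of 8 cows. IL1RN, the interleukin 1 receptor antagonist, fell by 0.90 on the log2 scale (SE 0.21, limma adjusted p = 0.0013), a difference of -0.48 without centring (limma adjusted p = 0.0961) and of -0.92 without the samples of low slide agreement (limma adjusted p = 0.0694). Both elements of RELA, a subunit of NF-kappa-B, rose, by 0.54 ± 0.11 and 0.62 ± 0.11 (SE, limma adjusted p = 0.00019 and 2e-05). On day 28 relative to day 14, LIFR rose by 1.2 ± 0.20 (SE, limma adjusted p = 7.5e-05) and one RELA element fell by 0.47 on the log2 scale (SE 0.11, limma adjusted p = 0.0034). The median difference of the list was 0.28 in the first interval and -0.17 in the second.

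**Figure D5:**
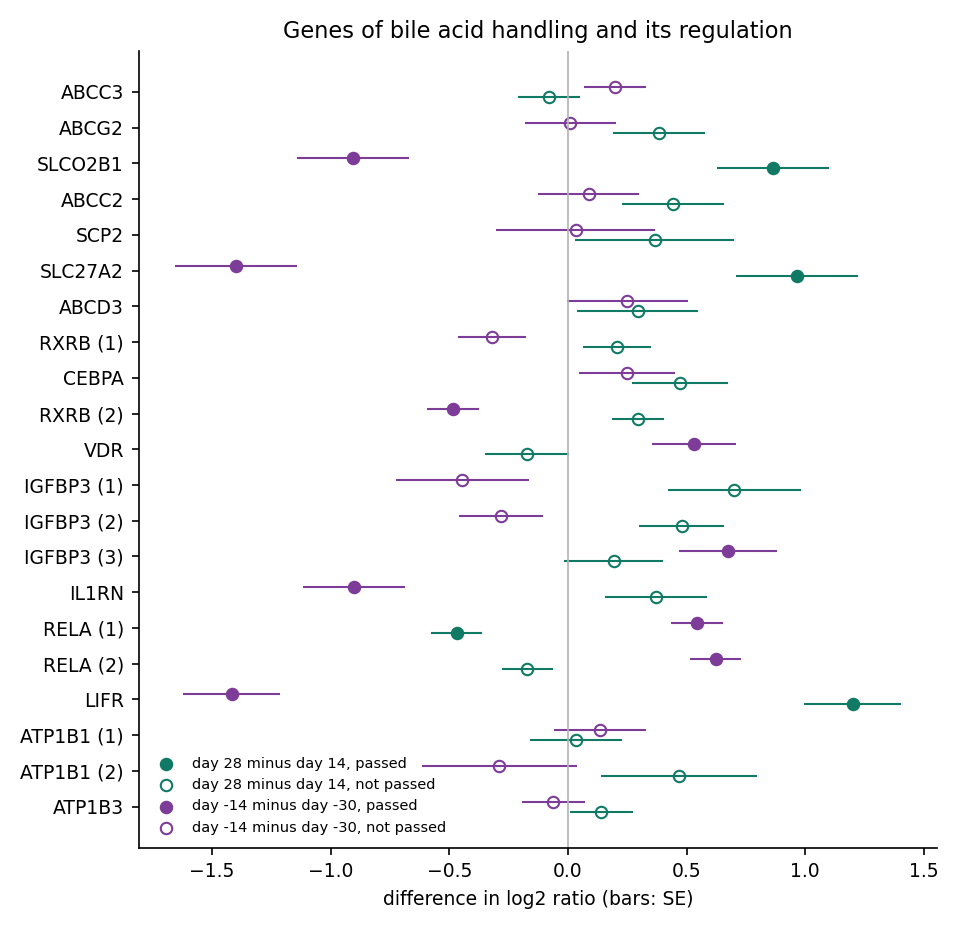
Difference in log2 ratio (horizontal axis, bars are SE) for the named elements of the bile acid and regulatory lists (one row each, numbered where a gene has several elements), for day -14 minus day -30 (purple) and day 28 minus day 14 (green). Filled points passed an adjusted p of 0.05; SLCO2B1, SLC27A2 and LIFR fell in the first comparison and rose in the second, except that without centring SLCO2B1 passed in neither and SLC27A2 only in the first.

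Between the diets, 1 of the 39 tested elements of these lists passed after calving, against 10.5% of all elements, namely the RXRB element that differed by -0.32 between day -14 and day -30, which was 0.52 higher in ad libitum cows (limma adjusted p = 0.0072). The other RXRB elements differed by -0.03 and -0.16 after calving and did not pass. None of the 4 carriers other than SLC10A1 passed before calving, after calving or on day 14.

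Some cell type markers changed in the same intervals. On day -14 relative to day -30, 1 of 3 hepatocyte marker elements fell and none rose, against 14% lower and 19.5% higher among all elements. TF, the plasma iron carrier, fell by 0.76 on the log2 scale (SE 0.16, limma adjusted p = 0.00029), while ASGR2, a subunit of the asialoglycoprotein receptor, differed by 0.24 ± 0.19 and APOA1, the main apolipoprotein of high density lipoprotein, by -0.46 ± 0.24 (SE). The mean ratio of the 3 lay between 2.71 and 3.53 on day -14 and between 3.10 and 3.53 on day -30, which are overlapping ranges. Over the 7 days TF averaged 3.98 to 5.57 and ASGR2 3.89 to 4.57, well above the reference throughout. APOA1 averaged 0.66 to 1.21, much nearer to the reference. Among macrophage markers 4 of 8 elements fell and none rose, among endothelial markers 3 of 7 fell and 1 rose, and among stellate cell and fibroblast markers 4 of 7 rose and none fell. The macrophage elements that fell were both of CD14, with CD163 and CD5L. Those of CD68, C1QA and C1QB differed by 0.02 to 0.50 without passing. Both elements of TAGLN were among the stellate cell and fibroblast elements that rose. Of the 4 cholangiocyte elements 1 rose and 1 fell, and both were elements of the same gene, SPP1 (0.71 and -0.62). The endothelial element that rose and 1 of those that fell were likewise both of PECAM1 (0.58 and -0.49). Among T and NK cell elements 1 of 4 rose. Without centring 1 hepatocyte element rose and none fell, 3 macrophage elements rose and 2 fell, 1 endothelial element rose and 2 fell, 6 stellate cell and fibroblast elements rose, and 3 of 4 T and NK cell elements rose. The mean ratio of the macrophage elements lay between 2.42 and 3.38 on day -14 and between 2.98 and 3.68 on day -30, that of the endothelial elements between 0.97 and 1.68 on day -14 and between 1.39 and 1.97 on day -30, and that of the stellate cell and fibroblast elements between -2.31 and -0.74 on day -14 and between -2.64 and -2.39 on day -30. The last of these ranges did not overlap. The array carried none of the 5 red cell markers. The part of these cells in the SLC10A1 values was not tested.

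On day 28 relative to day 14 several of these elements moved in the opposite direction. TF rose by 1.03 ± 0.16 (SE, limma adjusted p = 2e-05), with 3 of 8 macrophage and 5 of 7 endothelial elements, and 3 of 7 stellate cell and fibroblast elements fell, against 3.71% higher and 4.91% lower among all elements. Without centring 2 macrophage elements and no endothelial element rose, and with scaled arrays 7 of 8 macrophage and 6 of 7 endothelial elements rose. Of the cholangiocyte elements 1 of 4 rose, and of the T and NK cell elements 0 of 4 passed. Without the samples of low slide agreement 1 macrophage and 1 endothelial element rose. Between diets after calving, 7 of 33 marker elements passed, against 10.5% of all elements (9.81% higher and 0.67% lower): an SPP1 element (0.87), EPCAM (0.71) and CD163 (0.72) were higher, and TEK (-0.66) and elements of KDR (-0.53), CD14 (-0.63) and CD3E (-0.55) were lower in ad libitum cows. The other element of KDR had the opposite sign (0.40, limma adjusted p = 0.115). The other elements of SPP1 (0.55) and CD14 (-0.41) kept the sign, also without passing.

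The elements most like SLC10A1 were sought over the 53 samples among 5261 elements with 1 symbol and no missing value. All correlations share samples and slides, and the days account for much of them, so they are descriptive. The median size of r was 0.308, and 1.62% of elements reached 0.8 in size. FAAH, which degrades fatty acid amides, and SLCO2B1 headed the order, each with r = 0.907. SERPINA3-3, a serpin (0.901), FZD4, a Wnt receptor (0.898), LOC616364 (0.891), PNPLA2, a triglyceride lipase (0.890), FGFRL1, a receptor-like binder of fibroblast growth factors (0.890), and SERPING1, the C1 inhibitor (0.887), followed. FAAH had mean ratios of 2.04, 1.57, 0.79, 0.54, 0.88, 1.81 and 1.65 over the 7 days, with its lowest mean on day 1 as for SLC10A1.

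The elements most opposed to SLC10A1 were LAMA5, a laminin chain (r = -0.893), EMP1, a membrane protein (-0.891), TNC, the matrix protein tenascin (-0.886), ENAH, an actin regulator (-0.877), and MAPRE2, a microtubule-binding protein (-0.869). When SLC10A1 was read on one slide and the other gene on the other slide, the 8 highest values lay between 0.720 and 0.782 and the 5 lowest between -0.688 and -0.799.

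Likeness within diet and day was smaller when read across slides. After group means were removed, ECHDC2 (r = 0.764), ALAD, an enzyme of haem synthesis (0.739), TST, a mitochondrial sulphurtransferase (0.736), ACADS, an acyl-CoA dehydrogenase (0.723), SLCO2B1 (0.703), SERPING1 (0.700), CD14 (0.692) and EPAS1, a hypoxia-inducible factor (0.691), were highest. The lowest were DHX8, ANXA1, TPX2, MYO9A and KLC1, with r from -0.604 to -0.578. Read across slides, the 8 highest dropped to between 0.065 and 0.364 and the 5 lowest to between -0.444 and -0.309. SLCO2B1 and SERPING1 were the 2 names that headed both orders.

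In the bovine assembly ARS-UCD2.0 SLC10A1 lies between SRSF5 and SMOC1. Among the 5 genes on each side, SMOC1 and SLC39A9 had an element that could be compared. SMOC1, a matrix glycoprotein and the immediate neighbour, correlated with SLC10A1 at r = 0.869 over 53 samples. It fell by 0.69 on the log2 scale (SE 0.20, limma adjusted p = 0.0074) on day -14 relative to day -30 and rose by 0.82 ± 0.20 (SE, limma adjusted p = 0.0064) on day 28 relative to day 14. SLC39A9, a zinc transporter, did not share this course (r = -0.283): it rose by 0.43 ± 0.13 (SE, limma adjusted p = 0.01) in the first interval and differed by 0.02 ± 0.13 (SE) in the second. The differences of both neighbours are of centred values, so part of each depends on centring, and they are not given without it.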

How the data were processed

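The authors deposited a log2 ratio per spot for 16416 spots on each of 106 arrays, without spot intensities. Slides were scanned on the Scanarray scanner and processed with GenePix 4.0, per the labels. How the background was corrected, which spots were filtered and whether values were normalized is not stated in the sources used here. The median of an array ranged between -1.69 and 1.80. The log base and the direction, Cy5 over Cy3, were read from the values: opposite orientations correlated at a median of -0.549, and liver genes lay above 0 once turned by the dye in the titles. The longer text of 4 arrays names the opposite dye.

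The 2 spots of an element were averaged. Signs were turned so that positive values mean more signal in liver than in the reference, the median of each array was subtracted, and the mean of both dye orientations was used as 1 sample. Values were missing for 1.23% of spots. Of 8208 elements 8061 had both orientations in at least 2 cows per group and were tested. A single gene symbol was listed for 5598. A cDNA element can also bind transcripts of related genes.

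Days were compared with limma 3.58.1 in R 4.3.3 over 14 diet-by-day groups with a random block for the cow, since cows were sampled repeatedly (correlation within cows 0.0176). Diets were compared with 1 value per cow for the 3 periods, by limma and, for SLC10A1, by exact permutation (SciPy 1.17.1), and by day in the fit of groups. The adjusted threshold was 0.05 (Benjamini-Hochberg over all elements), two-sided. The number of cows limits the precision.

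Named genes were every SLC10A1 element, every member of a list of up to 10 elements or the 4 with the smallest p in either interval of a longer one, and the highest 8 and lowest 5 correlations. The gene, the gene lists and the intervals were chosen with earlier results of these data known. Alternatives were no centring, scaling arrays, a single dye or spot, leaving out each cow or the 20 samples with slide agreement under 0.6, slide agreement as a covariate, complete elements, and other treatments of cow.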

Additional observations from a re-analysis of the deposited data

How the results depend on the processing

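The trough of SLC10A1 was present under every alternative run, with day -14 lower than day -30 and day 28 higher than day 14. Leaving out each cow in turn, the first difference lay between -1.49 and -1.24 and the second between 1.31 and 1.66, while scaled arrays widened them to -2.24 and 2.77. For no reversal named here was the cause tested.

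Counts of elements past the threshold depended on the setting. Between day -14 and day -30, 2703 passed, against 1727 without the samples of low slide agreement. Between day 28 and day 14, 695 passed, against 2551 without centring, 1649 with scaled arrays, 2338 with liver in Cy3, 206 with liver in Cy5, and 414 to 1094 when each cow was left out. With no replicate block for cow the counts were 2650 and 665, and with cow as a fixed block 2692 and 685, and the pairing changed 1 call of a named gene: an IGFBP3 element passed for day 28 minus day 14 with the fixed block (0.48, limma adjusted p = 0.0259).

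Between diets, elements past the threshold numbered 0 before calving and 35 with cow as a random block. After calving they numbered 844, against 330 without centring and 433 with liver in Cy3. For the change across calving they numbered 0, and 2 without centring. On day 14 they numbered 1230, against 717 without centring, 658 with liver in Cy5, 181 without the samples of low slide agreement, and 335 to 1472 when each cow was left out.

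SLC10A1 differed between diets on 1 of 7 days, and on 0 of 7 without centring, with scaled arrays, with liver in Cy3, with the second spot, or with slide agreement as a covariate. Leaving out each cow gave 0 to 1 days, and the day 14 difference was then -1.08 to -0.41. The call was lost without cow 6886, 6952, 7050, 7105 or 7161, and without the samples of low slide agreement (-1.41). After calving, cow as a random block gave a limma adjusted p of 0.0502 in place of 0.155. The difference before calving turned to 0.51 with scaled arrays and 0.035 with liver in Cy3. The differences on single days that changed sign had not passed before. Day -65 gave -0.36 without centring, -0.48 scaled, -0.25 in Cy3, -0.12 with the covariate and -0.23 without low-agreement samples. Day -30 gave 0.19 without centring, 0.505 scaled, 0.070 in Cy3, 0.048 with the first spot and 0.13 with the covariate. Day -14 gave 0.52 scaled, 0.00013 in Cy3 and 0.079 without low-agreement samples. Day 28 gave 0.11 both scaled and in Cy3, and 0.05 without low-agreement samples. Leaving out each cow spanned -0.064 to 0.21 on day -65, -0.17 to 0.18 on day -30 and -0.36 to 0.045 on day 28.

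Among the listed genes under all alternatives, 27 calls were lost and 31 gained with the sign kept, in 828 comparisons with the main setting. In another 54 comparisons the sign changed, and some of these also lost or gained a call. Genes that changed sign had not passed before, except VDR. For day -14 minus day -30, values were 0.13 for ATP1B1, 0.36 for ATP1B3, 0.14 for IGFBP3 and 0.10 for an RXRB element without centring, and -0.64 for ABCC2, -0.44 for ABCG2, -0.14 for CEBPA and -0.41 for SCP2 with scaled arrays. With liver in Cy3 they were -0.10 for ABCG2, -0.050 and 0.086 for the ATP1B1 elements and -0.26 for SCP2. With liver in Cy5 they were -0.14 for ABCC2, 0.090 and 0.070 for 2 IGFBP3 elements and -0.0023 for VDR. The second spot gave -0.0026 for ABCG2, the covariate -0.25 for SCP2, and the samples of higher agreement 0.077 for ATP1B3. Leaving out each cow spanned -0.055 to 0.27 for ABCC2, -0.13 to 0.16 for ABCG2 and -0.19 to 0.24 for SCP2.

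For day 28 minus day 14, values without centring were -0.029 for ABCC2, -0.18 for ABCD3, -0.089 for ABCG2, -0.44 and -0.0046 for the ATP1B1 elements, -0.33 for ATP1B3, -0.00087 for CEBPA, -0.28 for IGFBP3, -0.10 for IL1RN, -0.27 and -0.18 for 2 RXRB elements and -0.11 for SCP2. An ATP1B1 element gave -0.43 with scaled arrays (limma adjusted p = 0.039), -0.13 in Cy5 and -0.017 with the first spot. RELA gave 0.002 in Cy3, and ABCC3 0.034, RXRB -0.090 and VDR 0.74 in Cy5. VDR gave 0.0058 with the first spot and IL1RN -0.0019 without low-agreement samples. Leaving out each cow spanned -0.17 to 0.023 for ABCC3, -0.13 to 0.19 for ATP1B1 and -0.36 to 0.0064 for VDR.

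Without centring the correlations of deviations with SLC10A1 turned to 0.12 for DHX8, 0.15 for ANXA1, 0.044 for MYO9A and 0.028 for KLC1, and with scaled arrays to 0.020 for MYO9A. The reading across slides and the day 14 comparison without cow 6952 were chosen after seeing the data, as was the count of listed genes under other settings. The tests of SLCO2B1 against the exporters were not set out in advance either. Diets before and after calving were not fitted without the samples of low slide agreement, where 1 ad libitum cow kept day -14 and 0 kept day 1.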
